A study of Mus musculus with 6 samples.

Results

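The genes described here are the collagen and laminin chains of the deposited table of mouse pancreatic islets, the clusters of endocrine cells that release insulin and other hormones. They were chosen by symbol alone, as rows named Col, digits, a, digits for collagens and Lama, Lamb or Lamc with 1 digit for laminins. Of 18437 genes in the table, 49 met this rule, 38 collagen chains and 11 laminin chains. The filter on low values, a normalized count of at least 10 in at least 3 libraries, left 43 of them, 33 collagen and 10 laminin chains. Col4a6, Col11a1, Col22a1, Col23a1, Col26a1 and Lama1 fell under it.

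The study compared 3 RNA sequencing libraries of Sec16b-/- islets (knockout) with 3 of Sec16b+/+ islets (wild type), from male mice of 30 weeks. Sec16b encodes a protein of endoplasmic reticulum exit sites, from which secretory cargo leaves in COPII-coated carriers. The sources used here give neither the allele, its cell specificity nor the strain, and they do not say that libraries came from different animals. The p-values therefore rest on the spread between libraries, which may be technical. Islets were isolated and frozen before RNA extraction.

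Collagens are trimers of chains in which glycine recurs at a fixed short spacing. Fibrillar collagens (types I, II, III, V and XI) form the fibres of connective tissue and come mainly from fibroblasts and stellate cells, while collagen VI forms beaded microfibrils around cells. Collagen IV and the laminins build basement membranes. A laminin is a trimer of 1 alpha, 1 beta and 1 gamma chain, and in mouse islets the basement membrane along capillaries comes largely from endothelial cells. Procollagen is a large cargo that needs dedicated factors to leave the endoplasmic reticulum.

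Each library gave between 22071895 and 26806787 reads, recovered from the deposited values, and the 49 genes took 0.0934%, 0.0934% and 0.0950% of them in knockout replicates 1, 2 and 3. In wild type replicates 1, 2 and 3 they took 0.0782%, 0.123% and 0.0807%. Exact 95% Clopper-Pearson intervals, which cover counting error only, were at most 0.00285 percentage points wide. Sec16b itself had normalized counts of 553, 433 and 750 in knockout and 1655, 773 and 1786 in wild type replicates 1, 2 and 3, with a log2 fold change of −1.22 (SE 0.35, limma adjusted p = 0.993). Insulin and endothelial markers were present in all 6 libraries, Ins1 between 468979 and 757702 and Cdh5 between 1194 and 2023. In bulk RNA, fewer cells of a type and less RNA per cell cannot be told apart.

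No collagen or laminin gene passed the test between knockout and wild type islets. Limma called 0 of 43, against 0% of all 16042 genes tested in either direction, and edgeR also called 0. DESeq2 called 0 members as well, against 0.114% of the genes to which it gave an adjusted p. It gave none to 25 of the 49 members, which could not be called. At an unadjusted p under 0.05 limma found 3 members, against 3.08% of all genes tested. It found 2 on the higher side, Col6a6 and Lama5, against 1.72% of all genes. On the lower side it found 1, Col8a1, against 1.36% of all genes. EdgeR had 2 members at an unadjusted p under 0.05, against 3.17% of all genes, and DESeq2 had 5 of 49, against 3.28% of the genes it tested. The 3 knockout values lay wholly above the 3 wild type values in 2 tested members (3.85% of all genes) and wholly below in 2 (5.22% of all genes). These 4 of 43 members compare with 9.08% of all genes, so separated members were about as frequent as separated genes in general.

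Family medians of the fold change lay on both sides of 0. The 33 collagen chains had a median log2 fold change of 0.10 and the 10 laminin chains one of 0.23, beside −0.00302 for all genes tested. Above 0 lay 19 collagen and 8 laminin chains, and 49.4% of all genes. Below 0 lay 14 collagen and 2 laminin chains, and 50.6% of all genes. Fibrillar chains had a median of −0.59, with 6 of 8 below 0. The 5 tested collagen IV chains lay above 0, with a median of 0.58. That median was set by low chains, Col4a3 (0.72), Col4a4 (0.58) and Col4a5 (0.85), with mean normalized counts of 32.4, 22.8 and 38.1. The abundant chains Col4a1 and Col4a2, with means of 4224 and 2557, were at 0.15 and 0.16. The median SE was 0.67 for fibrillar and 0.36 for collagen IV chains, beside 0.20 for all genes, so the members were measured with less precision than most genes.

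**Figure D1:**
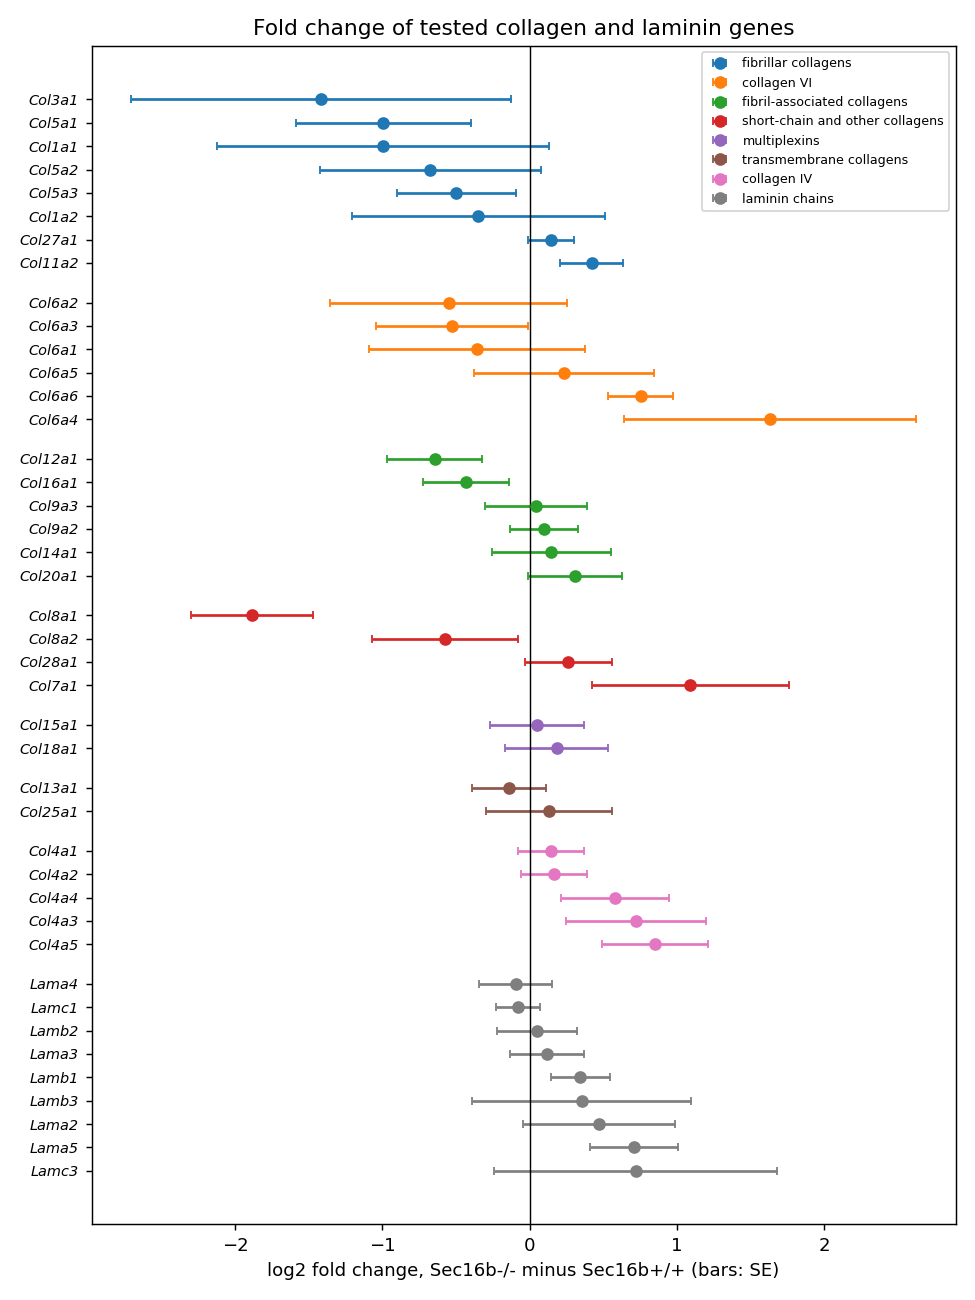
Log2 fold change of tested collagen and laminin genes (x axis, Sec16b-/- minus Sec16b+/+, bars give limma's SE), grouped by family down the y axis. Col8a1 (−1.88, SE 0.42) and Col6a6 (0.75, SE 0.22) lie farthest from 0 relative to their SE, and most fibrillar chains have wide bars.

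The widest spread was in Col3a1 and Col1a1, fibrillar collagens of connective tissue, and it lay mainly within the wild type group. Col3a1, the single chain of collagen III, had normalized counts of 113, 123 and 74.8 in knockout replicates 1, 2 and 3, against 29.1, 1466 and 460 in wild type replicates 1, 2 and 3. The highest and the lowest library were thus both wild type, 50.4-fold apart, and the knockout values lay between them within a 1.64-fold range. Its log2 fold change was −1.42 (SE 1.29, limma adjusted p = 0.993), −0.20 without wild type replicate 2 and −3.01 without wild type replicate 1. Count models weight the high libraries more, and DESeq2 put it at −2.66.

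Col1a1 and Col1a2, the chains that make collagen I, followed the same order of libraries. Col1a1 stood at 109, 241 and 67.8 in knockout libraries, against 39.1, 973 and 369 in wild type libraries. For Col1a2 the counts were 282, 425 and 186 in knockout and 87.2, 1045 and 506 in wild type libraries. Again wild type replicate 2 was highest and wild type replicate 1 lowest. Their log2 fold changes of −0.99 (SE 1.13) and −0.35 (SE 0.86) lay within the spread between libraries, and both turned positive without wild type replicate 2 (0.0061 for Col1a1 and 0.42 for Col1a2). Without wild type replicate 1 they were −2.30 and −1.37.

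Collagen VI chains that assemble with each other, Col6a1, Col6a2 and Col6a3, showed the same spread on a smaller scale. Col6a1 had 218, 238 and 81.7 in knockout libraries and 73.2, 494 and 248 in wild type libraries. Col6a2 had 142, 201 and 74.8 in knockout libraries and 54.1, 513 and 243 in wild type libraries. Col6a3 had 120, 186 and 69.8 in knockout libraries and 95.2, 313 and 158 in wild type libraries. The groups overlapped in each of the 3 genes, with log2 fold changes of −0.36 (SE 0.73), −0.55 (SE 0.81) and −0.53 (SE 0.52).

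Col5a1, Col5a2 and Col5a3 encode collagen V, a minor partner in collagen I fibrils. Col5a1 had 41.7, 98.4 and 20.9 in knockout libraries, against 62.2, 144 and 79.1 in wild type libraries, a log2 fold change of −0.99 (SE 0.59). The log2 fold change was −0.67 (SE 0.75) for Col5a2 and −0.50 (SE 0.40) for Col5a3. Over these 9 chains of collagens I, III, V and VI, a set picked after their values were seen, wild type replicate 2 was the highest library in 9. The lowest was wild type replicate 1 in 5 and knockout replicate 3 in 4. The fold range within wild type ran from 1.62 for Col5a3 to 50.4 for Col3a1. Within knockout it ran from 1.64 for Col3a1 to 4.70 for Col5a1. Col5a1 and Col5a3 varied more within knockout than within wild type.

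**Figure D2:**
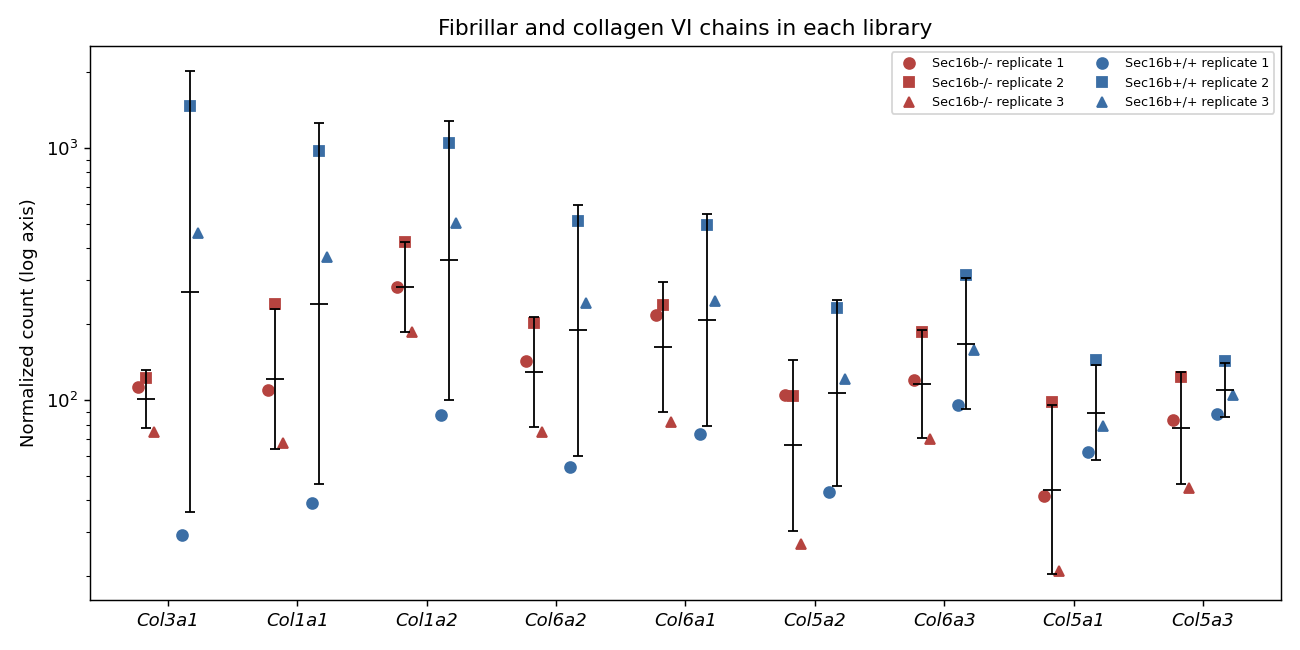
Normalized count on a log axis of 9 chains of collagens I, III, V and VI in each library, Sec16b-/- left of Sec16b+/+ in each pair. Horizontal and vertical black marks give the mean and SD on the log2 scale (n = 3 each). Wild type replicate 2 is the top point for each chain, and the spread within wild type is widest for Col3a1, from 29.1 to 1466.

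Markers of stellate cells and fibroblasts covered a narrower range than the collagen I and III genes. Of 14 listed markers, which include no collagen or laminin, 13 were in the table, none of them at 0. Their summed normalized count was 6778, 5978 and 3372 in knockout replicates 1, 2 and 3, and 5281, 4951 and 4001 in wild type replicates 1, 2 and 3. Col1a1, Col1a2 and Col3a1 together summed to 504, 789 and 329 in knockout libraries and to 155, 3484 and 1336 in wild type libraries. Vim and Rgs5 made up most of the marker sum, and Vim, which encodes vimentin, had 2347, 2450 and 790 in knockout libraries and 2722, 1190 and 1248 in wild type libraries. As a mean of log2(value + 1), which weights the markers equally, their level was 7.39, 7.36 and 6.32 in knockout libraries and 6.78, 7.17 and 6.56 in wild type libraries. Wild type replicate 2, the highest library in the collagen sum, was thus the highest wild type library in this mean but not in the marker sum, and knockout replicates 1 and 2 lay above it in both. Within wild type the markers Postn, Dpt, Rgs5, Cspg4, Pdgfrb, Dcn and Lum were highest in replicate 2. The other markers in the table, Vim, Thy1, Pdgfra, Acta2, Des and Tagln, were highest in replicate 1, with Thy1 at 275, 49.4 and 49.2. Dcn, which encodes the collagen-binding proteoglycan decorin, was highest in knockout replicate 1 at 983, and 450 in wild type replicate 2. Lum, which encodes the related lumican, had 51.5, 78.7 and 17.9 in knockout libraries and 4.01, 133 and 92.3 in wild type libraries, the order of the collagen I and III genes. With the mean marker level as a covariate the Col3a1 log2 fold change was −1.66. That level averages markers that differed in their order over the libraries, so the fit cannot hold the share of these cells fixed. The part of these cells in the result was not tested.

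**Figure D3:**
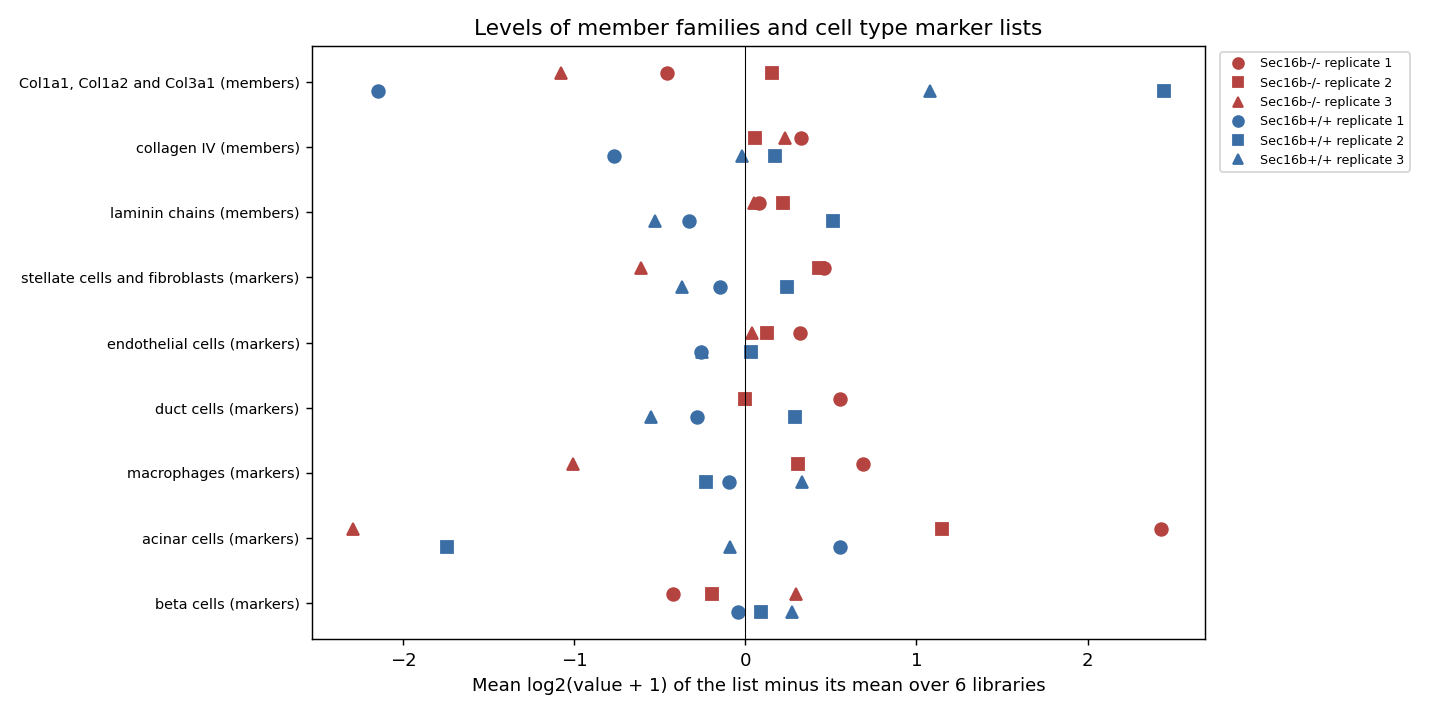
Mean log2(value + 1) of each list minus its mean over the 6 libraries (x axis), for 3 groups of members and 6 cell type marker lists (y axis), Sec16b-/- above Sec16b+/+ in each row. The Col1a1, Col1a2 and Col3a1 row spans nearly as wide a range as the acinar markers, while collagen IV, the laminins and the beta cell markers lie within 1 of their means.

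Collagen IV, the network former of basement membranes, gave the most abundant chain, Col4a1. Per kilobase of merged exon, Col4a1 had 666 in knockout and 611 in wild type libraries, the highest normalized count per kilobase of the 49 genes. Col4a1 was at 5277, 4348 and 3598 normalized counts in knockout replicates 1, 2 and 3, and 3405, 5399 and 3318 in wild type replicates 1, 2 and 3. Its partner in the same trimer, Col4a2, was at 3228, 2632 and 2191 in knockout libraries, against 2073, 3239 and 1978 in wild type libraries. Knockout replicate 1 and wild type replicate 2 were high in both genes and the groups overlapped. The log2 fold changes were 0.15 (SE 0.22) for Col4a1 and 0.16 (SE 0.22) for Col4a2 (limma adjusted p = 0.993).

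These partner genes kept a nearly fixed ratio. Col4a1 counts were 1.63, 1.65 and 1.64 times the Col4a2 counts in knockout replicates 1, 2 and 3, and 1.64, 1.67 and 1.68 times in wild type replicates 1, 2 and 3. The log2 ratio had an SD of 0.014 over the 6 libraries, where Col4a1 alone had 0.31 and Col4a2 alone 0.32. Counting error alone gives an SD between 0.032 and 0.040 for one library, so the ratio varied by less than counting error alone gives. Among 4799 genes with a mean of at least 1000 that were set against Col4a1 in the same way, a comparison chosen after the ratio was seen, Col4a2 had the smallest SD. The next was Dcp2 at 0.073.

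Col4a1 and Col4a2 stand head to head on mouse chromosome 8, and the RefSeq starts overlap by 22 bases in build GRCm38.p6. Promoter windows of RefSeq, 250 bases before to 50 after the start, were at hand for 35 of the 49 genes, in 38 windows. The Col4a1 window at chr8:11312777-11313076 (minus strand) holds both starts and is shown for this pair, and the Col1a2 window at chr6:4505368-4505667 (plus strand) and the Col3a1 window at chr1:45311288-45311587 (plus strand) are shown for chains of collagens I and III, which varied widely between libraries. Capitals mark 3 motifs, the CCAAT box (CCAAT), the GC box (GGGCGG) and the TATA box (TATAAA), on both strands, so that the reverse complements ATTGG of the CCAAT box, CCGCCC of the GC box and TTTATA of the TATA box are in capitals too.
Col4a1: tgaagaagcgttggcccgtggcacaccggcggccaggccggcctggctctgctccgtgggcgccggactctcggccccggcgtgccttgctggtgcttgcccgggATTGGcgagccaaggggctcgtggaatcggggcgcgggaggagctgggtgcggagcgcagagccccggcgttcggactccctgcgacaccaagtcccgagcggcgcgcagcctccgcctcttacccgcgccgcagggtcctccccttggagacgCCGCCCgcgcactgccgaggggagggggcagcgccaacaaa
Col1a2: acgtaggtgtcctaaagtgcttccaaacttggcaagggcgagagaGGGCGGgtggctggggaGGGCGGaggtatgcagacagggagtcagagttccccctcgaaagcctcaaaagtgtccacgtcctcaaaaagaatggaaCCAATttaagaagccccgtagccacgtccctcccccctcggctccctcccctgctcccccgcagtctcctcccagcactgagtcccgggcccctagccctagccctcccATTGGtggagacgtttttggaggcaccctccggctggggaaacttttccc
Col3a1: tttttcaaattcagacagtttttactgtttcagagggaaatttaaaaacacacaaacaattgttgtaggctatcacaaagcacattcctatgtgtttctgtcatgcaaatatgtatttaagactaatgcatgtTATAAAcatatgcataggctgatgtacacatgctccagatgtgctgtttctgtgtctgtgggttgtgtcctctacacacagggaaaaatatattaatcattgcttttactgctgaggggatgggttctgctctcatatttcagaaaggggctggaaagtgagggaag
The Col4a1 window has 1 CCAAT and 1 GGGCGG match, the Col1a2 window 2 of each, and the Col3a1 window 1 TATAAA match. G and C make up 74.0% of the Col4a1, 61.0% of the Col1a2 and 37.7% of the Col3a1 window. GGGCGG was in 26 of the 38 windows (68.4%), beside 35.7% of all 32851 windows in the RefSeq table. CCAAT was in 12 (31.6%, beside 37.4%) and TATAAA in 3 (7.89%, beside 13.6%). A match is a run of letters, not a binding site.

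Other chain pairs varied more. Col4a3 and Col4a4, the chains of the mature kidney filter, were low, at 24.5, 36.5 and 60.8 for Col4a3 in knockout libraries and 14.03, 23.2 and 35.2 in wild type libraries. Col4a5, their partner, had 45.4, 41.2 and 59.8 in knockout libraries against 17.04, 31.0 and 34.3 in wild type libraries. These Col4a5 groups did not overlap, with a log2 fold change of 0.85 (SE 0.36, limma adjusted p = 0.993). Col4a6, which forms a trimer with Col4a5, lay between 1.002 and 7.36 in all libraries. The SD of the log2 ratio over 6 libraries was 0.56 for Col4a3 over Col4a4, with as few as 12 reads for a chain in a library, and 0.53 for Col1a1 over Col1a2. It was 0.25 for Col6a1 over Col6a2.

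Ratios were set between the genotypes for 10 chain pairs, most of them partners in a trimer and others, such as Lama4 and Lama5, chains of one family. The two-sided exact permutation test cannot go below p = 0.1 with 3 libraries against 3, so no pair could have passed 0.05, and the lowest adjusted p over the pairs was 0.5. Col1a1 over Col1a2 had a mean log2 ratio of −1.21 in knockout and −0.56 in wild type libraries, a difference of −0.64 (SE 0.36, exact p = 0.2). Lama4 over Lama5 had −2.59 in knockout and −1.78 in wild type libraries, a difference of −0.81 (SE 0.36, exact p = 0.1). It was the pair of smallest p, which reflects that each knockout library lay below each wild type library. The margin was narrow, with −1.998 in knockout replicate 2 and −1.988 in wild type replicate 2. Col4a1 over Col4a2 differed by −0.02 (SE 0.01, exact p = 0.2).

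**Figure D4:**
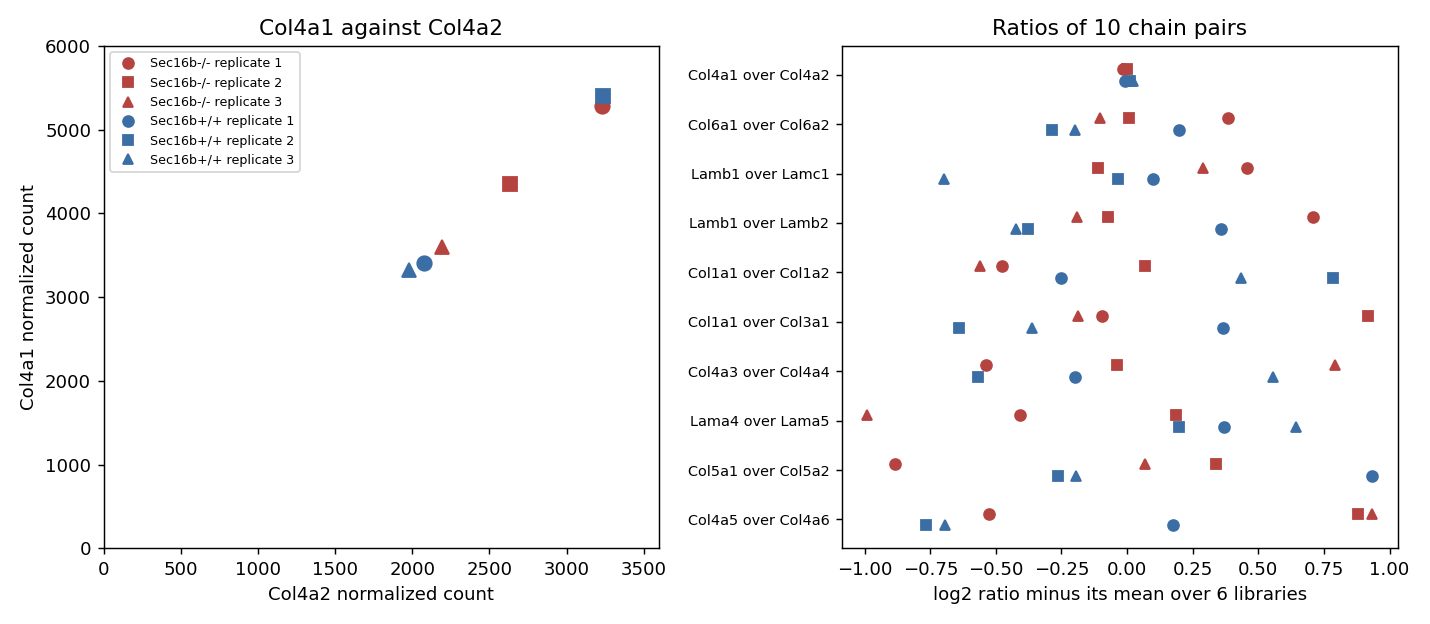
Left, normalized count of Col4a1 (y axis) against Col4a2 (x axis) in 6 libraries, which fall on a line with a ratio between 1.63 and 1.68. Right, log2 ratio of each of 10 chain pairs minus its mean over the libraries (x axis), ordered from the smallest SD (Col4a1 over Col4a2, 0.014) to the largest (Col4a5 over Col4a6, 0.78), Sec16b-/- above Sec16b+/+ in each row.

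Endothelial markers and collagen IV shared part of their order over the libraries. The 12 listed markers, all in the table and none at 0, summed to 15189, 13643 and 12774 in knockout replicates 1, 2 and 3, and to 10429, 13604 and 11104 in wild type replicates 1, 2 and 3. Collagen IV chains summed to 8610, 7088 and 5938 in knockout and to 5522, 8724 and 5390 in wild type libraries. Knockout replicate 1 and wild type replicate 2 were high in both sums. Duct cell markers shared this trait. Their mean of log2(value + 1) was 10.30, 9.75 and 9.75 in knockout libraries and 9.47, 10.04 and 9.20 in wild type libraries. As a mean of log2(value + 1), the endothelial markers had 9.62, 9.43 and 9.35 in knockout libraries and 9.05, 9.34 and 9.05 in wild type libraries. All knockout libraries lay above all wild type libraries in this mean, but narrowly, with 9.347 in knockout replicate 3 and 9.341 in wild type replicate 2. In the marker sum the genotypes overlapped, and collagen IV overlapped both as a sum and as a mean. The 5 tested collagen IV chains had log2 fold changes above 0. The part of endothelial or duct cells in the collagen IV values was not tested.

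Lamc1, the gamma chain of most laminins, had 2632, 3011 and 2266 normalized counts in knockout replicates 1, 2 and 3, and 2320, 3010 and 3031 in wild type replicates 1, 2 and 3. The groups overlapped and varied by at most 1.33-fold within each, with a log2 fold change of −0.08 (SE 0.15). Lama3 and Lamb3, chains of an epithelial laminin, were low per kilobase of exon. Lama3 had 18.7 normalized counts per kilobase in knockout and 17.003 in wild type libraries, and Lamb3 had 26.7 in knockout and 24.5 in wild type libraries.

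Lama5, the alpha chain of widespread laminins of epithelia and vessels, was the laminin chain of smallest p. Its counts were 998, 942 and 1475 in knockout replicates 1, 2 and 3, against 618, 1036 and 493 in wild type replicates 1, 2 and 3. Wild type replicate 2 reached into the knockout range, so the groups overlapped. The log2 fold change was 0.71 (SE 0.30, unadjusted p = 0.0498, limma adjusted p = 0.993). Lama4, the alpha chain typical of vessels, had 164, 235 and 162 in knockout and 174, 260 and 169 in wild type libraries, with −0.10 (SE 0.25).

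The beta chains and the remaining alpha chains overlapped between genotypes. Lamb1 had 696, 536 and 532 in knockout libraries against 478, 565 and 359 in wild type libraries, a log2 fold change of 0.34 (SE 0.20). Lamb2 had 0.05 (SE 0.27), and Lama2, an alpha chain of muscle and nerve basement membranes, had 0.47 (SE 0.52). Lamb3 and Lamc3 had 0.35 (SE 0.74) and 0.72 (SE 0.96), and their wild type values ranged 6.83-fold and 24.2-fold. Lamc3, with as few as 2 reads in a library, changed sign in the count models, at −0.06 in edgeR and −0.07 in DESeq2.

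Col6a6, a collagen VI chain thought to take the place of Col6a3, had the smallest p of the members on the higher side. It was at 1902, 1680 and 3100 in knockout replicates 1, 2 and 3, and at 1193, 1320 and 1312 in wild type replicates 1, 2 and 3. Each knockout library lay above each wild type library, and the wild type values lay within a 1.11-fold range. The means were 2227 ± 764 and 1275 ± 71.1 (SD, n = 3 each) in knockout and wild type libraries, a log2 fold change of 0.75 (SE 0.22). The unadjusted p was 0.0119 and limma's adjusted p 0.993, with a DESeq2 adjusted p of 0.37. Without knockout replicate 3, the highest library, the log2 fold change was 0.49. Per kilobase of exon Col6a6 had 243 in knockout and 139 in wild type libraries, above Col6a1 at 43.7 and 66.3.

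Col8a1, a short-chain collagen made by vessel walls, had the smallest p of all members, at low counts. Its counts were 17.2, 13.1 and 13.95 in knockout libraries against 42.1, 101 and 43.1 in wild type libraries, so the groups did not overlap. The log2 fold change was −1.88 (SE 0.42, unadjusted p = 0.00286, limma adjusted p = 0.993), or 3.69-fold lower in knockout libraries. With single libraries left out it ran from −2.10 to −1.48. DESeq2 had an unadjusted p of 0.000155 for Col8a1 but gave it no adjusted p. Its partner Col8a2 had 25.8, 16.9 and 6.98 in knockout and 20.05, 26.1 and 21.1 in wild type libraries, with −0.58 (SE 0.50). Col12a1, which binds the surface of collagen I fibrils, was the other separated gene, at 31.9, 30.0 and 21.9 in knockout and 57.1, 33.9 and 43.1 in wild type libraries. Its log2 fold change was −0.65 (SE 0.32, limma adjusted p = 0.993).

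**Figure D5:**
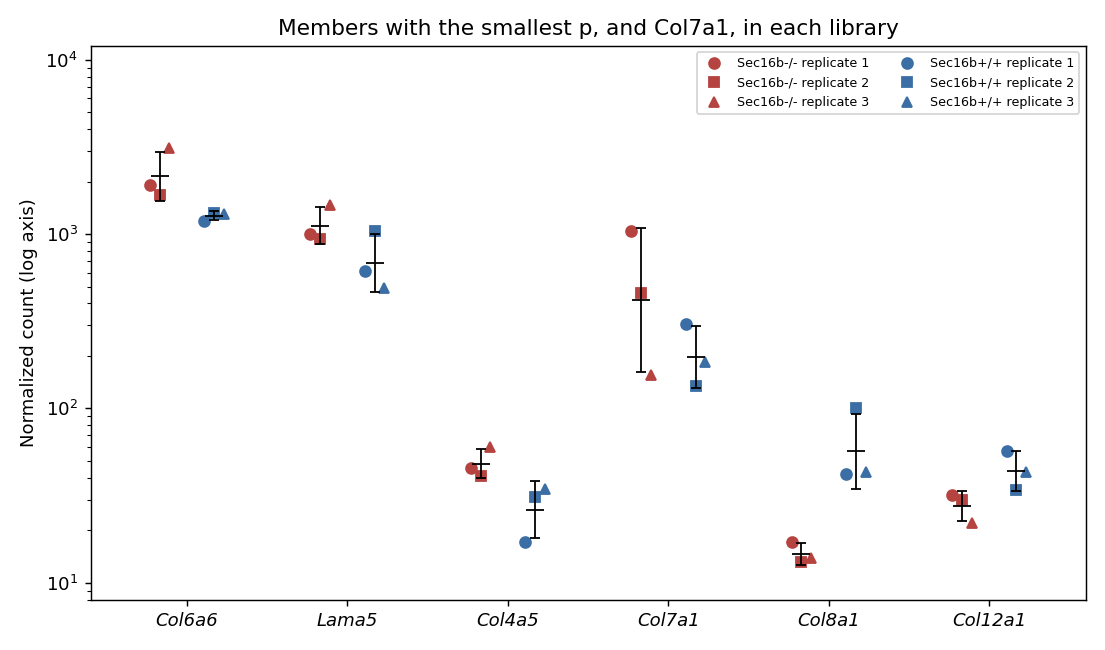
Normalized count on a log axis of 6 members in each library, Sec16b-/- left of Sec16b+/+. Black marks give the mean and SD on the log2 scale (n = 3 each). The genotypes do not overlap for Col6a6, Col4a5, Col8a1 and Col12a1, and they overlap for Lama5 and Col7a1.

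Col11a2 and Col16a1 were among the 5 of smallest p on their sides. Col11a2, a chain of collagen XI, had 391, 257 and 325 in knockout libraries against 269, 197 and 258 in wild type libraries, a log2 fold change of 0.42 (SE 0.21). Col16a1, a fibril-associated chain, had 126, 147 and 151 in knockout libraries against 251, 124 and 224 in wild type libraries, with −0.43 (SE 0.29). Both overlapped between the genotypes.

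Col7a1, the anchoring fibril collagen below epithelia, is named after its values were seen, for its order over the libraries. It had 1037, 461 and 154 in knockout replicates 1, 2 and 3, and 304, 135 and 186 in wild type replicates 1, 2 and 3. The 15 acinar markers, all in the table and none at 0, summed to 3799730, 1501290 and 139090 in knockout libraries and to 1065040, 215251 and 679240 in wild type libraries. The 4 highest libraries came in the same order in both. The Col7a1 log2 fold change was 1.09 (SE 0.67, limma adjusted p = 0.993), 0.63 with the acinar level as a covariate, 0.44 without knockout replicate 1 and 1.81 without knockout replicate 3. Col6a4, also named after its values were seen, had 38.0, 43.1 and 10.96 in knockout libraries and 38.1, 3.87 and 2.64 in wild type libraries. The 6 lymphocyte markers in the table, of 8 listed and none at 0, summed to 143805, 9810 and 7122 in knockout libraries and to 21710, 237 and 629 in wild type libraries. Both were low in wild type replicates 2 and 3, and the part of lymphocytes in the Col6a4 values was not tested.

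The other abundant chains had log2 fold changes near 0. Col27a1, a fibrillar collagen of cartilage, and Col15a1 and Col18a1, the multiplexins of basement membrane zones, had log2 fold changes of 0.14 (SE 0.16), 0.05 (SE 0.32) and 0.18 (SE 0.35). Col13a1, a collagen that spans the cell membrane, had −0.14 (SE 0.25). The remaining tested chains, Col6a5, Col9a2, Col9a3, Col14a1, Col20a1, Col25a1, Col28a1 and Lama3, overlapped between the genotypes and had log2 fold changes between 0.04 (Col9a3, a chain of cartilage collagen IX) and 0.31 (Col20a1). The 6 genes under the filter reached 14.5 at most, in Col22a1. Col23a1 was the separated one among them, at 13.5, 7.49 and 6.98 in knockout and 3.01, 0.97 and 3.52 in wild type libraries.

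Genes that make, export, bind or sense these chains gave 0 calls in limma as well. Of 28 tested genes of collagen processing and export, 10 were above and 18 below 0, with a median log2 fold change of −0.08. P3h2, a prolyl hydroxylase that acts on collagen IV, had 155, 170 and 179 in knockout libraries against 340, 214 and 357 in wild type libraries. It was the 1 gene of the 28 with separated groups, where 9.08% of all genes had them, with a log2 fold change of −0.82 (SE 0.23, unadjusted p = 0.00943, limma adjusted p = 0.993). P3h1 and Crtap, partners in a complex that modifies procollagen, had −0.31 (SE 0.14) and −0.25 (SE 0.14). Among 17 matrix partners, 13 were above 0, led by p by Thbs1 (0.25, SE 0.15), a matricellular glycoprotein gene, the basement membrane linker gene Nid2 (0.30, SE 0.23) and Dcn (0.63, SE 0.70).

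Of 15 tested receptors, 11 were above 0. Dag1, which encodes the laminin receptor dystroglycan, lay below, at 3163, 3173 and 3332 in knockout libraries against 3773, 3884 and 3689 in wild type libraries. It was the 1 gene of the 15 with separated groups, with a log2 fold change of −0.23 (SE 0.08, unadjusted p = 0.0199, limma adjusted p = 0.993). The integrin genes Itga1 and Itga3 had 0.35 (SE 0.19) and 0.24 (SE 0.22). Of 18 genes of the TGF-beta axis, which drives collagen transcription in fibroblasts, 11 were above 0. Tgfb2, a ligand, had 163, 124 and 137 in knockout libraries against 77.2, 107 and 67.7 in wild type libraries, with 0.76 (SE 0.25, unadjusted p = 0.0181, limma adjusted p = 0.993). Ltbp1 and Ltbp3, which hold latent TGF-beta in the matrix, had 0.84 (SE 0.37) and 0.28 (SE 0.13). Groups were separated in 2 of these 18 genes on the higher and 1 on the lower side, beside 3.85% and 5.22% of all genes.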

How the data were processed

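The authors deposited 1 table of normalized counts, a signal value per gene and library that is a read count divided by a size factor, as the values themselves show. Divided by the value that 1 read is worth in its library, between 0.879 and 1.23, 100% of entries came within 0.01 of an integer. The aligner was HISAT2, per the submitters' processing notes. A version, a counter, a genome build and a strand setting are not stated in the sources at hand, so overlapping genes could share reads. The table holds no value of 0, and genes outside it were not analysed here. It has 0 value columns beyond the 6 samples.

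Genes that reached a value of 10 in 3 or more libraries were tested as log2(value + 1) with limma 3.58.1 (trend, Benjamini-Hochberg adjustment over all 16042 genes, two-sided, threshold 0.05) in R 4.3.3. That scale understates the change of low genes. EdgeR 4.0.16 and DESeq2 1.42.0 on the recovered reads were alternatives, and DESeq2 gave no adjusted p to 25 of the 49 members. In the libraries wild type 1 and knockout 3 the step lies so near 1 that an automated check of units would not count their reads as recovered. Their values are multiples with many decimals like the others, and they were included. Levels between genes were divided by the merged exon length in GENCODE M21. Replicates were far from duplicate libraries (chi-square per degree of freedom from 49.9 to 284). The scripts were tested on simulated data.

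Members, lists, pairs and tests were chosen with earlier results of these data known. Named were Sec16b, members with a mean of at least 1000, the 5 of smallest p per direction, the members of 10 chain pairs, and the 3 of smallest p in each other list. Families were described with further members beside these, and 1 laminin chain that entered the fits and counts is not reported here.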

Additional observations from a re-analysis of the deposited data

How the results depend on the processing

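In each of the 15 alternatives run with limma or edgeR, 0 members and 0 genes were called, and DESeq2 called 12 genes, none of them a member. At an unadjusted p under 0.05 the main fit had 3 of 43 members, beside 494 of all 16042 genes tested. A filter at 50 gave 1 of 31 members, beside 378 of 12879 genes. DESeq2 gave 5 of 49 members, beside 603 of 18389 genes. The replicate block gave 5 members beside 864 genes, and the acinar level as covariate 6 beside 459. Between 2 and 7 members were found after leaving out 1 library. Dropping wild type library 1 gave 7 members beside 716 genes. Dropping wild type library 2 gave 5 beside 561, and dropping knockout library 2 gave 5 beside 378. In such smaller sets some fold changes changed sign, and the cause was not tested. Those of Col1a1 (−0.99 in all), Col1a2 (−0.35), Col6a1 (−0.36) and Col6a2 (−0.55) did so without wild type library 2. Col6a1 did so without knockout library 3 as well. On the log2 scale Lamc1 ran from −0.21 to 0.025, Lamb2 from −0.17 to 0.31 and Lama4 from −0.27 to 0.10 (0.028 with array weights). Col1a1 ran from −2.30 to 0.0061, Col1a2 from −1.37 to 0.42, Col6a1 from −1.11 to 0.26 and Col6a2 from −1.45 to 0.17. The difference in log2 ratio ran from −0.57 to 0.068 for Col5a1 over Col5a2 and from −0.22 to 0.46 for Col4a3 over Col4a4. The collagen median ran from −0.14 to 0.18 over all alternatives and the laminin median from 0.0023 to 0.40. From the reported medians of 0.10 and 0.23 these moved by less than 1 SD between replicates (0.60 for collagens and 0.31 for laminins). That SD is of the median log2 level of each library, not of a fold change, and exceeds both medians, so it is a loose measure. The collagen median fell below 0 with the filter at 50 and with either marker covariate. It also did so without wild type library 1 and without knockout library 1. Labels share replicate numbers between genotypes, but same-numbered libraries deviated together with correlations of 0.43, 0.0037 and 0.37, and knockout replicate 2 did not correlate best with its own number. The numbers were therefore not taken as pairs, and the replicate block changed no call. Depth limits genes such as Col4a6, with as few as 1 read in a library.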

Other observations

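A look at the order of the 6 libraries, made after the values were seen, gave a small group of matrix genes beside the collagens. Among all tested genes, 40 others had the order of Col3a1, from wild type replicate 2 at the top to wild type replicate 1 at the bottom. In 7 of them the highest library was at least 5-fold above the lowest. These were Col1a1, Col1a2, Col6a1 and Col6a2 and 3 genes that are no collagens, Lum, Eln and Mfap4. Eln, the elastin gene, had 29.4, 44.0 and 23.9 normalized counts in knockout replicates 1, 2 and 3, against 12.03, 357 and 46.6 in wild type replicates 1, 2 and 3. Mfap4, which encodes a microfibril-associated glycoprotein, had 16.0, 24.4 and 15.0 in knockout libraries, against 3.01, 64.9 and 28.1 in wild type libraries. The order of Col7a1 was shared by 50 other genes, 23 of them with at least a 5-fold range over the libraries. That of Col6a4 was shared by 9, of which 0 had such a range. These are counts of shared order over 6 libraries and were not tested.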
